A study of Mus musculus with 12 samples.

Results

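Ccr1, Ccr2, Ccr3, Cxcr4 and Cx3cr1 are 5 chemokine receptor genes that were taken by symbol from the 54115 genes of the annotation and followed in eosinophils of fat and blood. They were chosen with earlier results of these data known, and all 5 passed the filter on low counts. The series holds 12 RNA libraries of sorted eosinophils, granulocytes that circulate in blood and settle in tissues, from 5 untreated wild-type male FVB/NJ mice aged 20 weeks on a chow diet. The gonadal adipose group holds mice 2846, 2807, 2683 and 2668, the subcutaneous adipose group mice 2846, 2807, 2771 and 2668, and the blood group mice 2807, 2771, 2683 and 2668. Mice therefore recur across groups, with 3 mice shared by any pair of groups. Live cells carrying CD45, CD11b and Siglec-F had been sorted. Fat had been digested with collagenase type II at 37 C for 45 min before the sort. Blood came from cardiac puncture, and no digestion is given for it, so tissue and digestion cannot be told apart in any comparison of fat with blood.

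Chemokine receptors are G protein-coupled receptors that steer leukocytes along gradients of small secreted chemokines. Ccr3 is the receptor for the eotaxins and is known as the characteristic chemokine receptor of eosinophils. Cxcr4 binds Cxcl12 and holds granulocytes in bone marrow and tissue, Ccr1 binds inflammatory CC chemokines on many myeloid cells, and Ccr2 and Cx3cr1 are best known from monocytes and macrophages.

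The libraries held 4379954 to 23734940 estimated reads. The shallowest was the subcutaneous library of mouse 2846, where 28.0% of the reads were mitochondrial ribosomal RNA, against 4.64% to 8.74% in the other libraries. Of the eosinophil markers, Siglecf averaged 341 ± 138 CPM (counts scaled to a common library size) in gonadal fat, 307 ± 142 CPM in subcutaneous fat and 273 ± 44.3 CPM in blood (SD, n = 4 each). Il5ra, the receptor chain for interleukin 5, averaged 101 ± 36.7 CPM in gonadal fat, 121 ± 44.7 CPM in subcutaneous fat and 122 ± 8.65 CPM in blood. The granule protein genes Epx and Prg2 had group means of only 1.01 to 4.49 CPM. Markers of other cells were present. A list of 12 monocyte and macrophage genes summed to 1415 to 8564 CPM in gonadal fat, 987 to 3248 CPM in subcutaneous fat and 434.9 to 2165 CPM in blood. Of these genes, 6 were higher in gonadal fat than in blood and 8 in subcutaneous fat than in blood, with 0 lower in both and none at 0 in a whole group. Over all genes tested, 15.4% were higher in each depot (edgeR, adjusted p under 0.05). Fn1, the fibronectin gene, alone reached 6195 CPM in gonadal fat, 654.6 CPM in subcutaneous fat and 1576 CPM in blood. A list of 9 neutrophil genes, with Ly6g and Camp at 0 in every fat library, summed to 385.3 to 811.6 CPM in gonadal fat, 424.3 to 1308 CPM in subcutaneous fat and 3070 to 4574 CPM in blood. Retnlg led this sum, with a blood mean of 2582 CPM, against 59.8 CPM for S100a8, 155 CPM for S100a9 and 0.943 CPM for Ly6g. In such bulk samples, fewer cells of a type and less RNA per cell cannot be told apart.

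Libraries of sorted eosinophils from both fat depots held less Ccr3 RNA and more Ccr1 and Cxcr4 RNA than those from blood. Ccr2 and Cx3cr1 passed the test in no comparison, and no receptor passed it between the depots. In gonadal fat against blood, 2 of the 5 genes were higher and 1 was lower (edgeR, adjusted p under 0.05), where 15.4% of the 15367 genes tested were higher, 11.6% lower and 27% changed in either direction. In subcutaneous fat against blood the same 3 genes passed, 2 higher and 1 lower, where 15.4% of all genes were higher, 11.4% lower and 26.8% changed in either direction. Both comparisons use the same 4 blood libraries. With mouse as a block, 2 genes were higher and 0 lower in gonadal fat, where Ccr3 lost its call, and 1 was higher and 1 lower in subcutaneous fat, where Ccr1 lost its call. In gonadal against subcutaneous fat, 0 of the 5 passed, with 0 at an unadjusted p under 0.05, and DESeq2 likewise gave 0, with 1 at an unadjusted p under 0.05. Only 0.00651% of all genes passed there, which is 1 gene, Lef1, named after its values were seen.

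**Figure D1:**
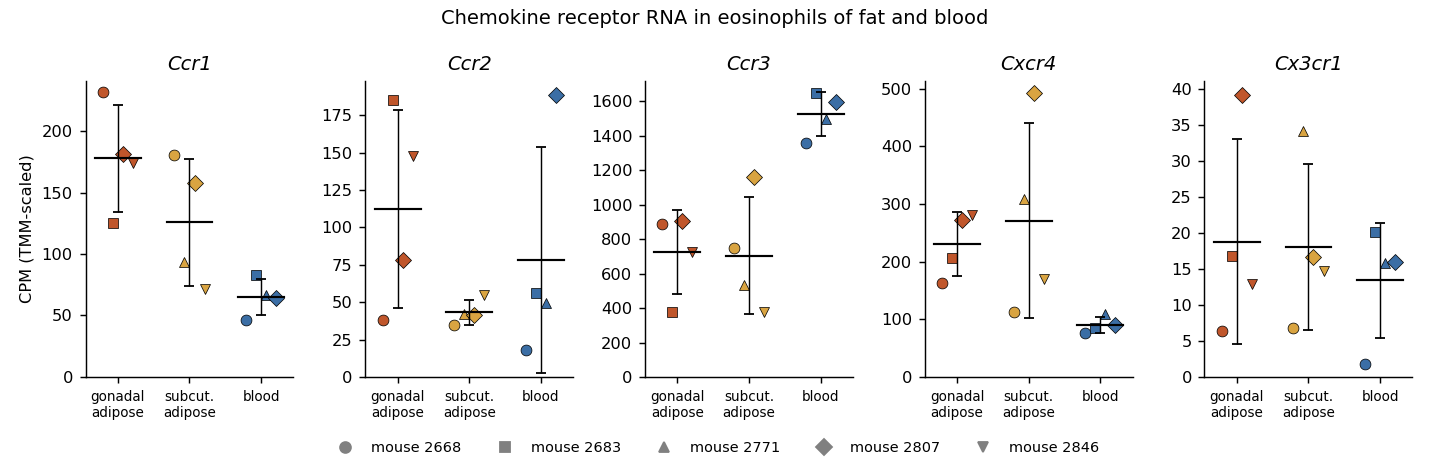
TMM-scaled CPM of the 5 receptor genes in each library, one panel per gene with its own axis from 0. Points are libraries, shaped by mouse, and bars are the mean and SD of 4 libraries. Blood lies above both fat groups for Ccr3 (1359 to 1649 CPM) and below both for Cxcr4 (75.96 to 108.6 CPM).

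**Figure D2:**
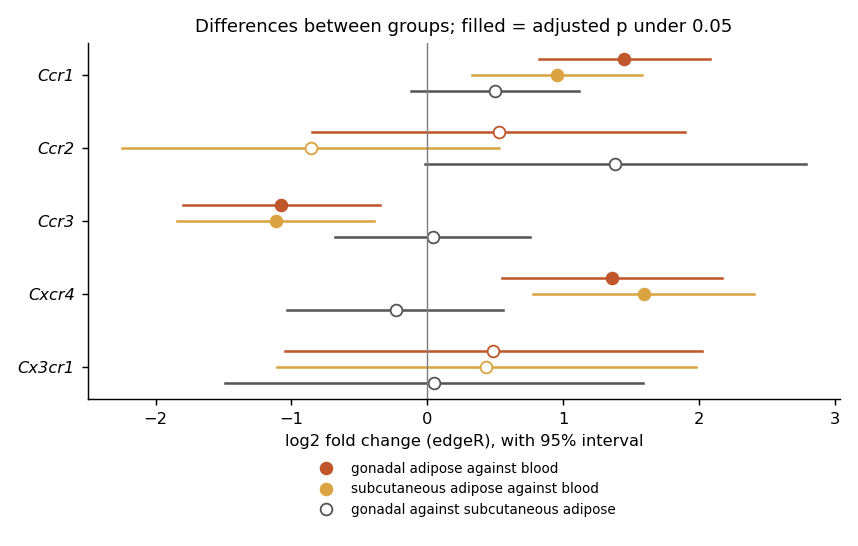
Log2 fold change of each receptor in the 3 comparisons (horizontal axis) with its 95% interval, for gonadal fat against blood, subcutaneous fat against blood and gonadal against subcutaneous fat. Filled points have an adjusted p under 0.05. Ccr1 and Cxcr4 lie right of 0 and Ccr3 left of 0 in both depots against blood, and every point of the comparison between depots is open.

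The promoters of Ccr3 and Cxcr4 are shown because these genes changed in opposite directions in both depots. Each sequence runs from 250 bases before to 50 bases from the start site of the RefSeq gene in GRCm38.p6, 5′ to 3′ along the gene. Capitals mark the motifs, which were searched on both strands. The TATA box was searched as TATAAA. The GC box was searched as GGGCGG. The motif of the lineage factors called GATA was searched as AGATAA. The AP-1 motif was searched as TGANTCA. The Ccr3 promoter lies at chr9:124021721-124022020 on the plus strand and the Cxcr4 promoter at chr1:128592250-128592549 on the minus strand.
Ccr3: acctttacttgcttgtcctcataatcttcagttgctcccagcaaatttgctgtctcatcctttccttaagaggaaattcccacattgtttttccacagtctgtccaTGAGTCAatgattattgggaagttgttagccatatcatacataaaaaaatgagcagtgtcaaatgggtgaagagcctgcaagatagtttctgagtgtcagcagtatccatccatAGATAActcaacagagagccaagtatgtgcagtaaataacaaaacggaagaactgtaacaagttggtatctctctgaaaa
Cxcr4: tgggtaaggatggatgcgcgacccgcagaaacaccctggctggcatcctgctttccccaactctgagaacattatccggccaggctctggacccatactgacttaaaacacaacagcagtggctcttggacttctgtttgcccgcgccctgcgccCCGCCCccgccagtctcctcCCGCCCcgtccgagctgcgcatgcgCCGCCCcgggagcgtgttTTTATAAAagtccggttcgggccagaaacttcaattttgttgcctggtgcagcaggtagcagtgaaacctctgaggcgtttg
The Ccr3 window was AT-rich, with 39.0% GC and 1 CpG, and held 1 AP-1 match starting 144 bases before the start site and 1 GATA match starting 30 bases before it. The Cxcr4 window had 59.3% GC and 20 CpGs, and held 3 GC boxes, all on the opposite strand, and 2 overlapping TATA matches at the same 8 bases, 1 on each strand. Over 32851 promoters of this length, 7.81% held the AP-1 letters, 11.18% the GATA letters, 35.66% the GC box and 13.62% the TATA box, and the medians were 52.7% GC and 7 CpGs. Of the other receptors, Ccr2 held 1 GATA match and Ccr1 and Cx3cr1 held none of the 4 motifs. A match is a description of the letters and no evidence of binding.

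Ccr3 (ENSMUSG00000035448) lies on chromosome 9 at 124021972 to 124031689 (GRCm38, plus strand) with 1 annotated transcript. Its RNA stood at 724.1, 905.9, 379 and 890.1 CPM in the gonadal libraries of mice 2846, 2807, 2683 and 2668. The subcutaneous libraries of mice 2846, 2807, 2771 and 2668 held 376.1, 1160, 531.6 and 749 CPM, against 1598, 1500, 1649 and 1359 CPM in the blood libraries of mice 2807, 2771, 2683 and 2668. Every fat library lay below every blood library, and the lowest values were those of gonadal 2683 and subcutaneous 2846. The means were 725 ± 245 CPM in gonadal fat and 1526 ± 127 CPM in blood (SD over 4 libraries each), which is a log2 fold change of -1.07 with an SE of 0.335 (edgeR, adjusted p = 0.0316). Subcutaneous fat averaged 704 ± 340 CPM, with a log2 fold change of -1.12 against blood and an SE of 0.336 (edgeR, adjusted p = 0.0275). Within each of the 3 mice with both libraries, Ccr3 was lower in fat, with log2 differences of -2.12 to -0.61 for gonadal fat and -1.50 to -0.46 for subcutaneous fat.

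The Ccr3 calls sat close to the threshold. A model blocked on mouse gave a gonadal log2 fold change of -1.10 (edgeR, adjusted p = 0.0513). The gonadal call was also lost, at values of -1.16 to -0.88, without any single blood library or without gonadal 2846 or 2683 (edgeR, adjusted p = 0.053 to 0.0742). The subcutaneous call was lost, at -1.13 to -0.89, without blood 2807, 2771 or 2683 or without subcutaneous 2846 or 2771 (edgeR, adjusted p = 0.051 to 0.0746). The direction held in all of these settings. The common leukocyte markers Ptprc and Itgam were lower in fat by similar amounts, with log2 fold changes for Ptprc of -0.90 in gonadal and -0.85 in subcutaneous fat, and for Itgam of -0.95 and -1.05 (edgeR, all 4 past the threshold). Siglecf and Il5ra did not pass the test in either depot, with log2 fold changes of -0.27 to 0.32. The summed level of the 8 eosinophil markers was lowest in gonadal 2683, at 3285 CPM, and subcutaneous 2846, at 2985 CPM, the libraries of lowest Ccr3. In blood the sum was 7370 to 8739 CPM. Ptprc and Itgam were the most abundant genes of that list, with medians of 3861 and 1911 CPM in blood, and so led the sum. The part of these markers in the Ccr3 difference was not tested.

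Ccr1 (ENSMUSG00000025804; chromosome 9, 123962124 to 123968692, minus strand, 1 transcript) lies in the same receptor cluster as Ccr3. Its RNA stood at 173.9, 181.3, 125 and 231.4 CPM in the gonadal libraries of mice 2846, 2807, 2683 and 2668. The subcutaneous libraries of mice 2846, 2807, 2771 and 2668 held 71.87, 157.6, 93.22 and 180.3 CPM, against 64.51, 66.31, 82.87 and 46.39 CPM in blood of mice 2807, 2771, 2683 and 2668. All gonadal libraries lay above all blood libraries, while subcutaneous 2846 fell within the blood range. Ccr1 rose to a mean of 178 ± 43.5 CPM in gonadal fat, against 65.0 ± 14.9 CPM in blood, a log2 fold change of 1.45 with an SE of 0.292 (edgeR, adjusted p = 0.00367). The subcutaneous mean of 126 ± 51.5 CPM gave a log2 fold change of 0.95 against blood with an SE of 0.290 (edgeR, adjusted p = 0.0286). Both mouse 2668 fat libraries were the highest of their depot, and they also had the lowest monocyte and macrophage sums, 1415 CPM in gonadal and 987 CPM in subcutaneous fat. In blood it was the other way, with the lowest Ccr1 (46.39 CPM) and the lowest sum (434.9 CPM) both in mouse 2668. The part of other cells in the Ccr1 difference was not tested.

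The gonadal Ccr1 call was kept under all 21 alternatives, with log2 fold changes of 1.29 to 1.59. The subcutaneous call was less firm. A model blocked on mouse gave 0.96 (edgeR, adjusted p = 0.0766). It was lost, at 0.74 to 0.96, without blood 2807, 2771 or 2668 or without subcutaneous 2807 or 2668 (edgeR, adjusted p = 0.0666 to 0.0997). The within-mouse log2 differences were 0.59 to 2.32 in gonadal fat and 0.49 to 1.96 in subcutaneous fat, higher than blood in 3 of 3 mice for both. Between the depots Ccr1 differed by a log2 of 0.50 (95% interval -0.12 to 1.12), and gonadal fat was higher in 3 of 3 mice with both depots (edgeR, adjusted p = 0.707).

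Cxcr4 (ENSMUSG00000045382; chromosome 1, 128588199 to 128592293, minus strand) has 2 transcripts, of which the first took at least 90.9% of its reads in every library. Its RNA stood at 281.3, 272.1, 206 and 163.4 CPM in the gonadal libraries of mice 2846, 2807, 2683 and 2668. The subcutaneous libraries of mice 2846, 2807, 2771 and 2668 held 169.5, 492.5, 309.3 and 112.2 CPM, against 90.21, 108.6, 84.65 and 75.96 CPM in blood of mice 2807, 2771, 2683 and 2668. All 8 fat libraries lay above all blood libraries, and subcutaneous fat spread the most, from mouse 2668 to mouse 2807. Cxcr4 rose to 231 ± 56.0 CPM in gonadal fat, against 89.8 ± 13.8 CPM in blood, a log2 fold change of 1.36 with an SE of 0.374 (edgeR, adjusted p = 0.0187). In subcutaneous fat it rose to 271 ± 169 CPM, a log2 fold change of 1.59 with an SE of 0.376 (edgeR, adjusted p = 0.00931). The subcutaneous call was kept under all 21 alternatives, at 1.13 to 1.86. The gonadal call was lost, at 1.22 to 1.33, without blood 2683 or 2668 or gonadal 2846 (edgeR, adjusted p = 0.0522 to 0.0597).

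In mouse 2668, whose libraries had the lowest monocyte and macrophage sums of their groups, Cxcr4 exceeded its blood level by a log2 of 1.10 in gonadal and 0.56 in subcutaneous fat, the smallest of the within-mouse differences of each depot. In mouse 2807 the difference was 1.59 in gonadal and 2.45 in subcutaneous fat. Cxcr4 did not otherwise keep the order of the marker sums. Subcutaneous 2807 had the most Cxcr4, 492.5 CPM, with the second lowest sum of its depot (1593 CPM), and gonadal 2683 had 206 CPM with the highest sum (8564 CPM). The part of other cells in the Cxcr4 difference was not tested. Between the depots Cxcr4 differed by a log2 of -0.23 (95% interval -1.03 to 0.56; edgeR, adjusted p = 0.904), and its sign was not the same in all 3 mice.

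On the TPM scale, which accounts for transcript length, Ccr3 led the 5 receptors in the blood libraries by a wide margin. It made up 33.3% to 57.7% of the summed TPM of the 5 receptors in gonadal fat and 40.6% to 60.6% in subcutaneous fat, against 78.6% to 85.3% in blood. The TPM ratio of Ccr3 to Cxcr4 was 0.924 to 2.6 in gonadal fat (median 1.47) and 0.898 to 3.13 in subcutaneous fat (median 1.19), against 7.15 to 10.1 in blood (median 8.82). The blood range of both measures was separate from the fat ranges. The order by TPM was Ccr3, Cxcr4, Ccr1, Ccr2 and Cx3cr1 in 9 of the 12 libraries. Cxcr4 came before Ccr3 in gonadal 2683 and subcutaneous 2771, and Ccr2 came before Ccr1 in gonadal 2683 and blood 2807. Neighbours in that order overlapped over the libraries of a group for Ccr3 and Cxcr4 in both depots, for Cxcr4 and Ccr1 in subcutaneous fat, for Ccr1 and Ccr2 in gonadal fat and blood, and for Ccr2 and Cx3cr1 in blood. In the other cases they were separate.

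**Figure D3:**
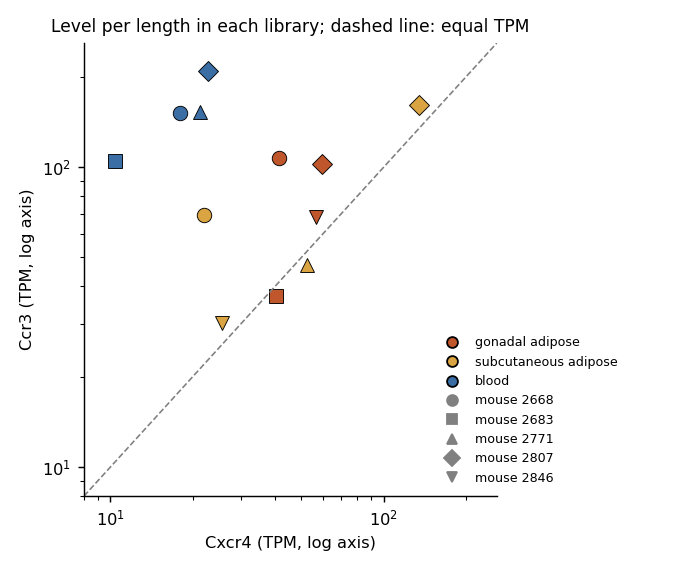
Ccr3 (vertical) against Cxcr4 (horizontal) in TPM, both on log axes, 1 point per library, coloured by tissue and shaped by mouse. Blood libraries lie far above the dashed line of equal TPM, with ratios of 7.15 to 10.1, and the fat libraries lie at 0.898 to 3.13.

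Ccr2 (ENSMUSG00000049103; chromosome 9, 124101950 to 124113557, plus strand) has 4 transcripts, and its reads were split among them. Its RNA stood at 147.6, 78.39, 185 and 37.96 CPM in the gonadal libraries of mice 2846, 2807, 2683 and 2668. The subcutaneous libraries of mice 2846, 2807, 2771 and 2668 held 54.5, 41.52, 41.94 and 34.88 CPM, against 188.5, 49.12, 56.26 and 18.01 CPM in blood of mice 2807, 2771, 2683 and 2668. The groups overlapped, and blood 2807 alone was more than 3 times any other blood library. The log2 fold change against blood was 0.53 in gonadal fat (95% interval -0.85 to 1.90; edgeR, adjusted p = 0.578) and -0.86 in subcutaneous fat (95% interval -2.25 to 0.53; edgeR, adjusted p = 0.342). Without blood 2807 these values were 1.41 (edgeR, adjusted p = 0.0635) and 0.03 (edgeR, adjusted p = 0.97), and without gonadal 2683 the gonadal value was 0.15 (edgeR, adjusted p = 0.902). Between the depots the log2 difference was 1.38 (95% interval -0.02 to 2.79; edgeR, adjusted p = 0.623), and gonadal fat was higher in 3 of 3 mice, by 0.12 to 1.44. Of the distinct 31-base words of Ccr2, 3.48% also occur in other genes, so some of its reads may belong to them.

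Ccr2 and the monocyte and macrophage list shared their lowest library in each group and their highest in gonadal fat and blood, but not the full order in blood or subcutaneous fat. The list was highest in gonadal 2683 (8564 CPM) and in blood 2807 (2165 CPM), the libraries with the most Ccr2 of their groups. It was lowest in the libraries of mouse 2668, which had the least Ccr2 in every group. Fn1 alone reached 6195 CPM in gonadal fat and 1576 CPM in blood, so the highest sums of these groups were mostly Fn1. In subcutaneous fat the list was highest in mouse 2771 (3248 CPM), whose Ccr2 was 41.94 CPM, while the highest Ccr2 was in mouse 2846. In blood the list was higher in mouse 2771 than in mouse 2683 (679.7 and 513.2 CPM), and Ccr2 was lower. The list's median log2 fold change against blood was 3.57 in gonadal fat, with 6 of 12 genes higher, and 3.95 in subcutaneous fat, with 8 of 12 higher, while Ccr2 passed in neither. Fn1, the fibronectin gene, had values of 2.44 and -1.05 (edgeR, adjusted p = 0.141 and 0.514), and Mrc1, the mannose receptor gene, 3.58 and 4.06 (edgeR, adjusted p = 0.0512 and 0.0349). The part of these cells in the Ccr2 level was not tested.

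**Figure D4:**
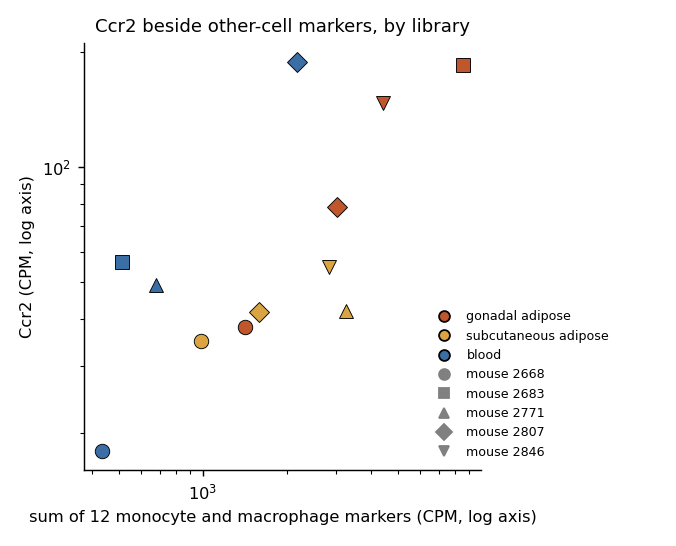
Ccr2 (CPM, vertical) against the summed CPM of 12 monocyte and macrophage markers (horizontal), both on log axes, 1 point per library. Gonadal 2683 and blood 2807 are highest in Ccr2, at 185 and 188.5 CPM, and have the highest marker sum of their groups. The marker Fn1 makes up most of both sums.

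Cx3cr1 (ENSMUSG00000052336; chromosome 9, 119901616 to 120069879, minus strand, 3 transcripts) was the least abundant of the 5. Its RNA stood at 12.89, 39.27, 16.77 and 6.336 CPM in the gonadal libraries of mice 2846, 2807, 2683 and 2668. The subcutaneous libraries of mice 2846, 2807, 2771 and 2668 held 14.67, 16.64, 34.19 and 6.843 CPM, against 15.96, 15.87, 20.11 and 1.786 CPM in blood of mice 2807, 2771, 2683 and 2668. The groups overlapped and mouse 2668 was lowest in each. Against blood the log2 fold change was 0.48 in gonadal fat (95% interval -1.05 to 2.02; edgeR, adjusted p = 0.654) and 0.44 in subcutaneous fat (95% interval -1.11 to 1.98; edgeR, adjusted p = 0.683). The first value was -0.19 without gonadal 2807 and the second -0.11 without subcutaneous 2771, so neither direction held. Its annotated span covers several other genes, of which only the antisense gene Gm33858 has an exon that overlaps one of its own. Of the distinct 31-base words of Cx3cr1, 3.28% also occur in other genes, so some of its reads may belong to them.

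The 5 receptors did not follow a common course over the 12 libraries. Pearson's r of log2 CPM was 0.59 for Ccr1 with Cxcr4, 0.52 for Cxcr4 with Cx3cr1, 0.51 for Ccr2 with Cx3cr1 and -0.46 for Ccr3 with Cxcr4, and between -0.28 and 0.21 for the other pairs. The group differences enter all of these values. Among 5551 genes with a mean of at least 20 CPM, the genes most like Ccr3 were Cdk19, Elf4 and Arfgef1 (r = 0.982, 0.977 and 0.976). Those most like Ccr1 were Rb1, H3f3b and Dars (r = 0.962, 0.958 and 0.955), and those most like Cxcr4 were Il1b, Mapk6 and Olr1 (r = 0.939, 0.923 and 0.897). The closest to Ccr2 were Larp4, Plekhf2 and Map4k1 (r = 0.918, 0.918 and 0.886), and to Cx3cr1 Pggt1b, Rab12 and Rap1a (r = 0.881, 0.879 and 0.85). All points share the libraries, their depth and the group differences.

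Most ligand genes of the list were higher in fat, but not the Cx3cr1 ligand Cx3cl1, at 0.86 in gonadal and 0.74 in subcutaneous fat (log2 fold change; edgeR, adjusted p = 0.738 and 0.783). Of 13 ligand genes, 10 were higher and 0 lower in gonadal fat against blood, where 15.4% of all genes tested were higher and 11.6% lower. In subcutaneous fat 10 were higher and 1 lower, where the shares were 15.4% and 11.4%. With 1 library left out, the count of higher ligand genes was 8 to 10 in gonadal fat and stayed at 10 in subcutaneous fat. The median log2 fold changes of the ligand genes were 4.72 and 5.53, against 0.08 and 0.07 over all genes tested. They stayed so with the 4 genes without blood reads at their bound. Ccl7, a Ccr2 ligand, had no read in blood and was at least 155-fold higher in gonadal and at least 463-fold higher in subcutaneous fat. Ccl2, the main Ccr2 ligand, averaged 14.3 ± 8.42 CPM in gonadal and 35.1 ± 19.4 CPM in subcutaneous fat, against a single read in all blood libraries (count ratio 1120, exact 95% interval 200 to 44200, and 2660, 476 to 105000). Both genes code for chemokines that attract monocytes. The monocyte and macrophage list and a list of 7 stromal and endothelial genes were also higher in fat. The second list summed to 114.7 to 400.5 CPM in gonadal fat, 145.5 to 3405 CPM in subcutaneous fat and 82.31 to 132.2 CPM in blood, with 4 of 7 genes higher in each depot, 1 lower in gonadal fat and none at 0 in a whole group. The part of these cells in the ligand levels was not tested.

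The eotaxin genes code for the ligands of Ccr3. Ccl24 averaged 25.6 ± 20.7 CPM in gonadal and 40.4 ± 18.3 CPM in subcutaneous fat, against 0.969 ± 1.06 CPM in blood, with log2 fold changes of 4.72 and 5.37 (edgeR, adjusted p = 0.00827 and 0.00499). Ccl11 had no read in blood and averaged 1.63 ± 0.763 CPM in gonadal and 7.21 ± 11.8 CPM in subcutaneous fat, at least 45-fold and 75.6-fold higher than blood. Its subcutaneous mean rested on mouse 2846 at 24.86 CPM, the library with the highest stromal and endothelial sum (3405 CPM, against 145.5 to 345.8 CPM in the other subcutaneous libraries). Ccl11 in gonadal fat lost its call in 7 settings, with edgeR adjusted p = 0.0548 to 0.0845. These were no count filter, blood 2771, 2683 or 2668 left out, gonadal 2807 or 2683 left out, and gonadal 2683 left out with blood 2807.

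Ccl4, an inflammatory CC chemokine, rose to 37.1 ± 11.3 CPM in gonadal and 46.9 ± 28.5 CPM in subcutaneous fat, against 0.620 ± 0.555 CPM in blood. Ccl8, whose human counterpart binds CCR2, had no read in blood and was at least 73.2-fold higher in gonadal and 320-fold higher in subcutaneous fat. The next 3 genes were named after their values were seen, and their fold changes were not recomputed under the alternatives. Cxcl12, the Cxcr4 ligand, stood at 9.01 ± 5.52 CPM in gonadal and 23.7 ± 21.9 CPM in subcutaneous fat, against 0.519 ± 1.04 CPM in blood, with log2 fold changes of 4.16 and 5.53 (edgeR, adjusted p = 0.0384 and 0.0149). Ccl9, a Ccr1 ligand, rose to 898 ± 61.1 CPM in gonadal and 621 ± 212 CPM in subcutaneous fat, against 91.0 ± 31.6 CPM in blood. Ccl6, another Ccr1 ligand, was the 1 gene lower in subcutaneous fat, at 2047 ± 796 CPM against 4067 ± 805 CPM in blood (log2 fold change -0.99; edgeR, adjusted p = 0.0289), a call lost in 7 settings. Those were the mouse block, blood 2771, 2683 or 2668 left out, subcutaneous 2846 or 2771 left out, and subcutaneous 2846 left out with blood 2807, and in each the list had 0 lower genes.

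**Figure D5:**
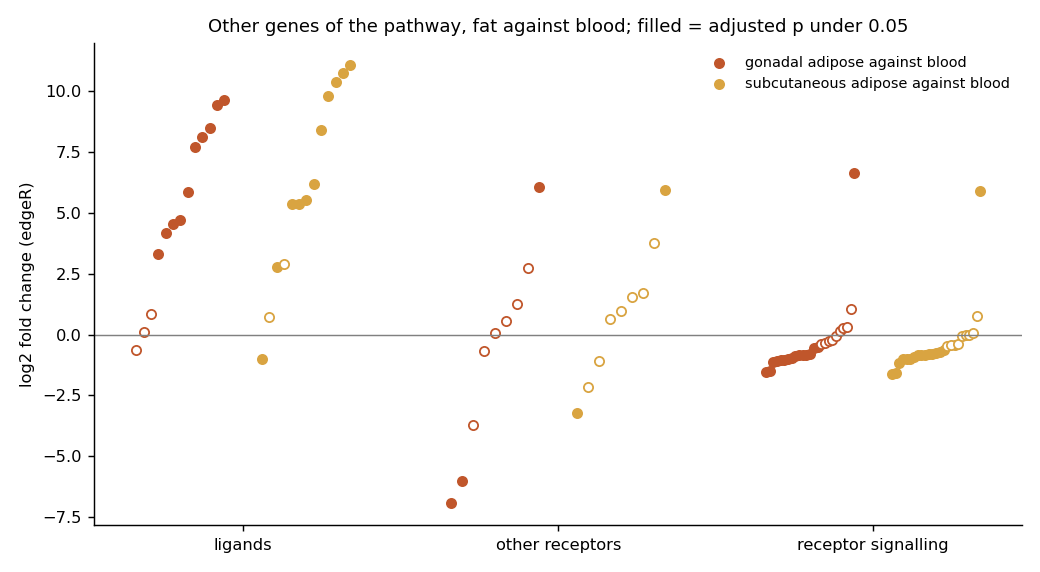
Log2 fold change against blood of each tested gene of 3 lists, ordered within each list by its value, for gonadal and subcutaneous fat. Filled points have an adjusted p under 0.05. Ligands lie mostly above 0 (medians 4.72 and 5.53) and signalling genes mostly below it (medians -0.80 and -0.75). Points of genes without blood reads are fitted values that depend on the prior count.

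Of 18 other chemokine receptor genes, 9 passed the filter on low counts. In gonadal fat 1 was higher and 2 were lower than in blood, and in subcutaneous fat 1 was higher and 1 lower, with median log2 fold changes of 0.06 and 0.98. Over all genes tested, 15.4% were higher in each depot, and 11.6% and 11.4% lower. Counts this small among 9 genes cannot be set apart from these shares. Without subcutaneous 2846 the subcutaneous counts were 2 higher and 0 lower. Without it and blood 2807 together, 2 were higher in gonadal fat and 0 lower in subcutaneous fat. Ccrl2, an atypical receptor that binds chemerin, showed the largest rise of this list, to 971 ± 256 CPM in gonadal and 881 ± 413 CPM in subcutaneous fat, against 14.3 ± 2.63 CPM in blood (edgeR, log2 fold changes 6.08 and 5.94, adjusted p = 2e-06 and 1.52e-06). On the TPM scale Ccrl2 ran from 123 to 273 in gonadal fat, above every Ccr3 value there (37.2 to 107), and from 53.4 to 263 in subcutaneous fat, where the ranges overlapped.

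Cxcr2, the receptor that guides neutrophils, fell to 0.894 ± 0.863 CPM in gonadal and 5.84 ± 7.64 CPM in subcutaneous fat, against 56.4 ± 18.1 CPM in blood (edgeR, log2 fold changes -6.01 and -3.22, adjusted p = 0.00171 and 0.0189). The neutrophil list moved the same way, with 6 of 7 tested genes lower in each depot and none higher, and its part was not tested. Without subcutaneous 2846 the subcutaneous value of Cxcr2 was -2.96 (edgeR, adjusted p = 0.0513), and with no count filter it was -3.22 (adjusted p = 0.062). Cxcr5, which guides B cells, had 3 reads in gonadal fat and 459 in blood (count ratio 0.00718, exact 95% interval 0.00147 to 0.0211, for counting error only). Blood 2807 stood at 19.94 CPM, against 0.3143 to 3.616 CPM in the other blood libraries, and without it the log2 fold change was -5.22 and still passed the threshold, against -6.92 with it (edgeR, adjusted p = 0.00475). The call was lost with voom and quality weights, at -4.67 (limma voom, adjusted p = 0.106). B cell genes, 5 of 6 lower in gonadal fat, summed to 5.537 to 16.35 CPM in gonadal fat and 16.97 to 198.9 CPM in blood, highest in blood 2807, which also had the most Cxcr5. The part of B cells was not tested.

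Genes that relay or end the receptors' signal were mostly lower in fat. The list of 26 holds genes for G proteins, receptor kinases, arrestins, phosphoinositide 3-kinases gamma and delta with their partners, phospholipase C beta, the Rac pathway (Prex1, Rac2, Dock2 and Elmo1) and RGS proteins, and 25 were tested. In gonadal fat 1 was higher and 15 lower than in blood, where 15.4% of all genes tested were higher and 11.6% lower. In subcutaneous fat 1 was higher and 16 lower, where the shares were 15.4% and 11.4%. The median log2 fold changes of the list were -0.80 and -0.75. With 1 library left out, the gonadal count of lower genes was 11 to 15. Without subcutaneous 2771 the subcutaneous count of lower genes was 10, and without subcutaneous 2846 and blood 2807 together it was 9. Some marker genes fell beside them. The sort markers Ptprc and Itgam had log2 fold changes of -0.90 and -0.95 in gonadal and -0.85 and -1.05 in subcutaneous fat (edgeR, adjusted p = 0.00972 to 0.023). They were the only called genes of the 8 eosinophil markers, 2 lower and 0 higher in each depot. The sort marker Siglecf did not pass in either depot. The 8 eosinophil markers, led by Ptprc and Itgam, summed to 3285 to 7327 CPM in gonadal and 2985 to 7235 CPM in subcutaneous fat. In blood they summed to 7370 to 8739 CPM, and none was at 0 in a whole group. Of 7 tested neutrophil genes, 6 were lower in each depot. The part of these markers in the signalling genes was not tested. Pik3cg, the catalytic subunit of phosphoinositide 3-kinase gamma, fell to 102 ± 17.5 CPM in gonadal and 127 ± 33.0 CPM in subcutaneous fat, against 285 ± 36.7 CPM in blood. Its regulatory partner Pik3r5 fell to 146 ± 30.4 CPM in gonadal and 138 ± 9.55 CPM in subcutaneous fat, against 430 ± 57.8 CPM in blood (edgeR, log2 fold changes -1.56 and -1.64, adjusted p = 6.2e-05 and 4.33e-05).

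The 1 gene of the list that rose was Rgs1, an RGS protein that shortens G protein signalling downstream of chemokine receptors. It stood at 771 ± 312 CPM in gonadal and 464 ± 241 CPM in subcutaneous fat, against 7.79 ± 2.30 CPM in blood (edgeR, log2 fold changes 6.63 and 5.90, adjusted p = 4.28e-06 and 5.48e-06). Rgs19, of the same protein family, moved the other way, with log2 fold changes of -1.12 and -1.59 (edgeR, adjusted p = 0.0149 and 0.00249). Blocked on mouse, the gonadal value of Rgs19 was -0.94 (edgeR, adjusted p = 0.0542). Between the depots 0 genes of the ligand, receptor and signalling lists passed in edgeR, and DESeq2 gave 2 receptor genes, Cxcr5 and Cxcr2, both lower in gonadal fat.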

How the data were processed

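RNA of sorted eosinophils was sequenced after library preparation with the SMARTer Stranded Total RNA pico kit, per the labels' protocols. Trim Galore 0.6.4, Salmon 1.6.0, DESeq2 1.30.1 and the mm10 build are named in the submitters' processing notes. The deposited tables hold, per the file headers, estimated counts and TPM for 140992 transcripts in each library. The TPM values are the authors' and were summed per gene here, to order genes by level per length. The annotation release and the strand setting are not given in the sources used here. Reads of a gene and of an antisense partner therefore cannot be told apart.

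Transcripts were matched to GENCODE M21 (GRCm38). Of these, 1201 without a match held 0.351% to 0.538% of reads and were left out. Expected counts were summed per gene, rounded, and tested with edgeR 4.0.16 in R 4.3.3 (robust quasi-likelihood test, TMM scaling, filterByExpr, all 12 libraries in 1 fit with group as the only term). Benjamini-Hochberg adjustment ran over 15367 genes, and calls were made under 0.05. The spread between replicates, as edgeR's common coefficient of biological variation, was 0.545. The SE is the log2 fold change divided by the square root of F, and 95% intervals use the t distribution with the fit's degrees of freedom. Folds against 0 reads are bounds from a floor of 3 reads over the group, and like the count ratios they cover counting error only, since PCR reads are not independent molecules. The test was checked on simulated counts.

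Mouse numbers mark the animal and so pair the libraries. Deviations from group means correlated by -0.111 to 0.358 over 9 same-mouse pairs (mean 0.0843), against a mean of -0.0188 over 39 pairs of different mice. Alternatives were mouse as a block, DESeq2 1.42.0, limma 3.58.1 voom with quality weights, RLE scaling, no count filter, a length offset, structured RNA left out, and libraries left out singly or in 2 pairs, the second of them chosen after seeing the data. No library batch is named in the labels. No 2 libraries of a group were identical. The receptors, gene lists and tests were chosen with earlier results of these data known. Beside the 5 receptors, the text names up to 4 called genes per functional list and comparison with at least 5 CPM in the higher group, the 2 most abundant genes of marker lists where they bear on a receptor, and the 3 genes most correlated with each receptor (log2 CPM, prior count 2). The lists of T and NK cell, dendritic cell, and mast cell and basophil markers summed to at most 228, 76.62 and 34.75 CPM in any library, with Mcpt8 and Fcer1a at 0 throughout. All 5 receptors matched a RefSeq promoter. A receptor gene of the lists is not reported here and stands in no list count.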

Additional observations from a re-analysis of the deposited data

Results flagged for a closer look

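Among 54 groups of 4 libraries (18 genes in 3 groups), 7 held a library whose gap to the next exceeded Dixon's critical share of the group's range, and chance gives about 1 in 20. None was a group of the 5 receptors. Cxcr5 had such a library in each group. It was at 0.0 CPM in gonadal 2683, against 0.0609 to 0.072 CPM in the other gonadal libraries (0 reads against 1 read each, which marks no unusual library), at 3.841 CPM in subcutaneous 2771, against 0.2995 to 0.8715 CPM, and at 19.94 CPM in blood 2807, against 0.3143 to 3.616 CPM. Cxcr2 reached 17.22 CPM in subcutaneous 2771, against 0.9566 to 3.09 CPM in the others of that depot. Ccl2 had its only blood read in mouse 2683, at 0.0524 CPM. Ccl11 reached 24.86 CPM in subcutaneous 2846, against 0 to 3.09 CPM in the other subcutaneous libraries. Rgs1 reached 823.8 CPM in subcutaneous 2668, against 320.4 to 370.9 CPM in the others.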

How the results depend on the processing

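Each result was recomputed under 21 alternatives. Ccr1 in gonadal fat and Cxcr4 in subcutaneous fat kept their calls against blood in all of them. With mouse as a block, Ccr3 in gonadal fat (-1.10) and Ccr1 in subcutaneous fat (0.96) lost their calls, Cxcr4 between depots was 0.03, and no other call of the 5 receptors changed. Of the other named genes, Rgs19 in gonadal fat and Ccl6 in subcutaneous fat lost theirs. Without blood 2807 and gonadal 2683 together, Ccr3 (-0.85; edgeR, adjusted p = 0.108) and Cxcr4 (1.40; 0.0617) in gonadal fat and Ccr1 in subcutaneous fat (0.93; 0.0569) lost their calls, and Ccr2 in subcutaneous fat was 0.04. Without subcutaneous 2846 and blood 2807 together, Ccr3 in subcutaneous fat was -0.88 (edgeR, adjusted p = 0.0901), and the depot differences of Ccr3 and Cx3cr1 were -0.17 and -0.05. With the length offset the depot difference of Cx3cr1 was -0.04.

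Leaving out 1 library at a time, gonadal fat against blood gave 0.15 to 1.41 for Ccr2, -1.22 to -0.88 for Ccr3, 1.22 to 1.50 for Cxcr4 and -0.19 to 0.77 for Cx3cr1. Subcutaneous fat against blood gave 0.74 to 1.17 for Ccr1, -1.21 to 0.03 for Ccr2, -1.47 to -0.89 for Ccr3 and -0.11 to 0.73 for Cx3cr1. Gonadal against subcutaneous fat gave -0.17 to 0.39 for Ccr3, -0.48 to 0.23 for Cxcr4 and -0.59 to 0.56 for Cx3cr1. The count of genes called was 4152 in gonadal fat against blood, 6484 with voom and 2753 to 5075 with 1 library left out. In subcutaneous fat it was 4121, and 2737 to 4256 with 1 library left out. Between depots it was 1, 152 with DESeq2, 0 with the mouse block, with voom and with either pair left out, and 0 to 7 with 1 library left out. The depot difference changed sign for Ccrl2 (-0.06 without gonadal 2668, -0.10 without subcutaneous 2846 and without that pair), Ccl4 (0.18 with the block), Ccl11 (0.62 with voom, 0.30 without subcutaneous 2846 and without that pair, -2.51 to 0.30 with 1 library left out) and Pik3r5 (-0.02 without gonadal 2846), none of them called. The cause was not tested. No scaling moved the median of all genes by more than 0.0332 on the log2 scale. Cx3cr1 had the fewest reads of the 5 receptors in every library, 36 to 552, and so the largest relative counting error.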
